A study of Mus musculus with 20 samples.

Results

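The cold response of DPP4+ adipocyte progenitors was described from 10 of the 20 libraries of the series: 5 of DPP4+ cells from mice at 6 °C for 24 h and 5 of DPP4+ cells from mice at 22 °C. DPP4 is a cell surface peptidase that marks fibroblast-like progenitors in the connective tissue sheets around and between fat lobules. The 12725 genes whose mean over these 10 libraries reached 10 normalized reads, of 27179 in the table, were described. Gene Dyx1c1 lay just inside this limit with a mean of 10.01 and Bcl6b just outside it with 9.995.

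All cells came from the inguinal white fat, a depot under the skin of the groin, of male C57BL/6 mice. PDGFRb+ cells, a stromal population that holds the adipocyte progenitors, had been isolated by flow cytometry and divided by DPP4. The groups were DPP4+ cells at 6 °C for 24 h, DPP4+ cells at 22 °C, DPP4- cells at 6 °C for 24 h and DPP4- cells at 22 °C, with 5 libraries each. No transgene or further treatment was named in the labels, and the age of the mice was not given in the sources used here. The labels did not say whether the 5 libraries of a group came from separate animals, so p-values measure the spread between these samples, which may be technical.

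When a mouse is moved into the cold, sympathetic nerves in fat release noradrenaline, which acts on beta-adrenergic receptors and raises cyclic AMP. Cyclic AMP activates protein kinase A and through it the transcription factors CREB and CREM, and in mature adipocytes this turns on lipolysis and the thermogenic gene Ucp1. Adipocyte progenitors can divide and form new fat cells, and they also secrete matrix, growth factors and cytokines that act on neighbouring vessels, nerves and immune cells.

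Dpp4 itself checked the sort: its mean was 10035 ± 2091 normalized reads in cold and 8546 ± 1158 in 22 °C DPP4+ libraries (SD, n = 5 each), and 61.3 and 67.9 in cold and 22 °C DPP4- libraries. Dpp4 did not pass the test between temperatures (log2 difference 0.22 ± 0.13 SE, limma adjusted p = 0.186). The progenitor marker Pdgfra, a receptor for platelet-derived growth factor, was present in every library but fell to 5287 ± 462 in cold libraries, against 11512 ± 419 at 22 °C. Pdgfrb, the receptor used for the sort, likewise fell to 1505 ± 80.7, against 2942 ± 226 (log2 difference -0.96 ± 0.06, adjusted p = 2.83e-08). These were the only falls among 11 markers of adipocyte progenitors, of which 2 rose (Cd24a and Pdpn) and 7 did not pass the test. The median log2 difference of the 11 was -0.06. Of 19 markers of DPP4+ progenitors 6 rose (31.6%), 2 fell (10.5%) and 11 did not pass the test. Over all tested genes 27.3% rose and 26.6% fell. The median log2 difference of the 19 was 0.24. Cd55, a complement regulator with the largest rise of them, averaged 9489 ± 901 in cold and 4838 ± 851 in 22 °C libraries. In bulk RNA, fewer cells of a type and less RNA per cell cannot be told apart.

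Reads assigned to genes numbered 11.8 to 17.5 M per cold library and 15.8 to 17.6 M per 22 °C library. The first principal component of the 10 libraries, with 76.8% of the variance, separated cold from 22 °C libraries. Cold library 5 stood apart from the other cold libraries on the next component (8.78% of the variance), at -31.5, while cold library 1 lay at the opposite end, at 19.8. Of the 137 genes that rose at least 4-fold, cold library 5 was the lowest of the cold libraries in 130 (94.9%) and cold library 1 the highest in 109 (79.6%). Over all tested genes these shares were 37.0% and 29.0%.

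Gene expression changed broadly in the cold. Of 12725 genes tested, 6866 (54.0%) passed an adjusted p of 0.05 in limma, with 3475 higher (27.3%) and 3391 lower (26.6%). At 5000 genes (39.3%) the 5 cold libraries lay wholly above or wholly below the 5 libraries at 22 °C. Most changes were small: 358 genes rose and 615 fell at least 2-fold, 137 rose and 126 fell at least 4-fold, and 59 rose and 38 fell at least 8-fold on the fitted log2(value + 1) scale. The median log2 difference over all genes was 0.01. Without cold library 5 the counts were 3723 higher and 3770 lower. With library totals set equal they were 2616 higher and 3657 lower.

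Genes were grouped by symbol into 5 classes. Of 835 transcription factors and coregulators tested 170 rose and 223 fell, or 199 and 194 with quantile normalization. Of 296 receptors 91 rose and 110 fell, and of 322 secreted factors 82 rose and 90 fell. Of 402 transporters and channels 113 rose and 125 fell, and of 165 regulators of intracellular signalling 65 rose and 44 fell. The median log2 difference was -0.03, -0.02, -0.06, -0.04 and 0.09 in this order of classes, each close to the median of all genes. The class medians kept these signs with TMM scaling, with library totals set equal and with quantile normalization, except that of transcription factors, which was 0.00 with quantile normalization.

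**Figure D1:**
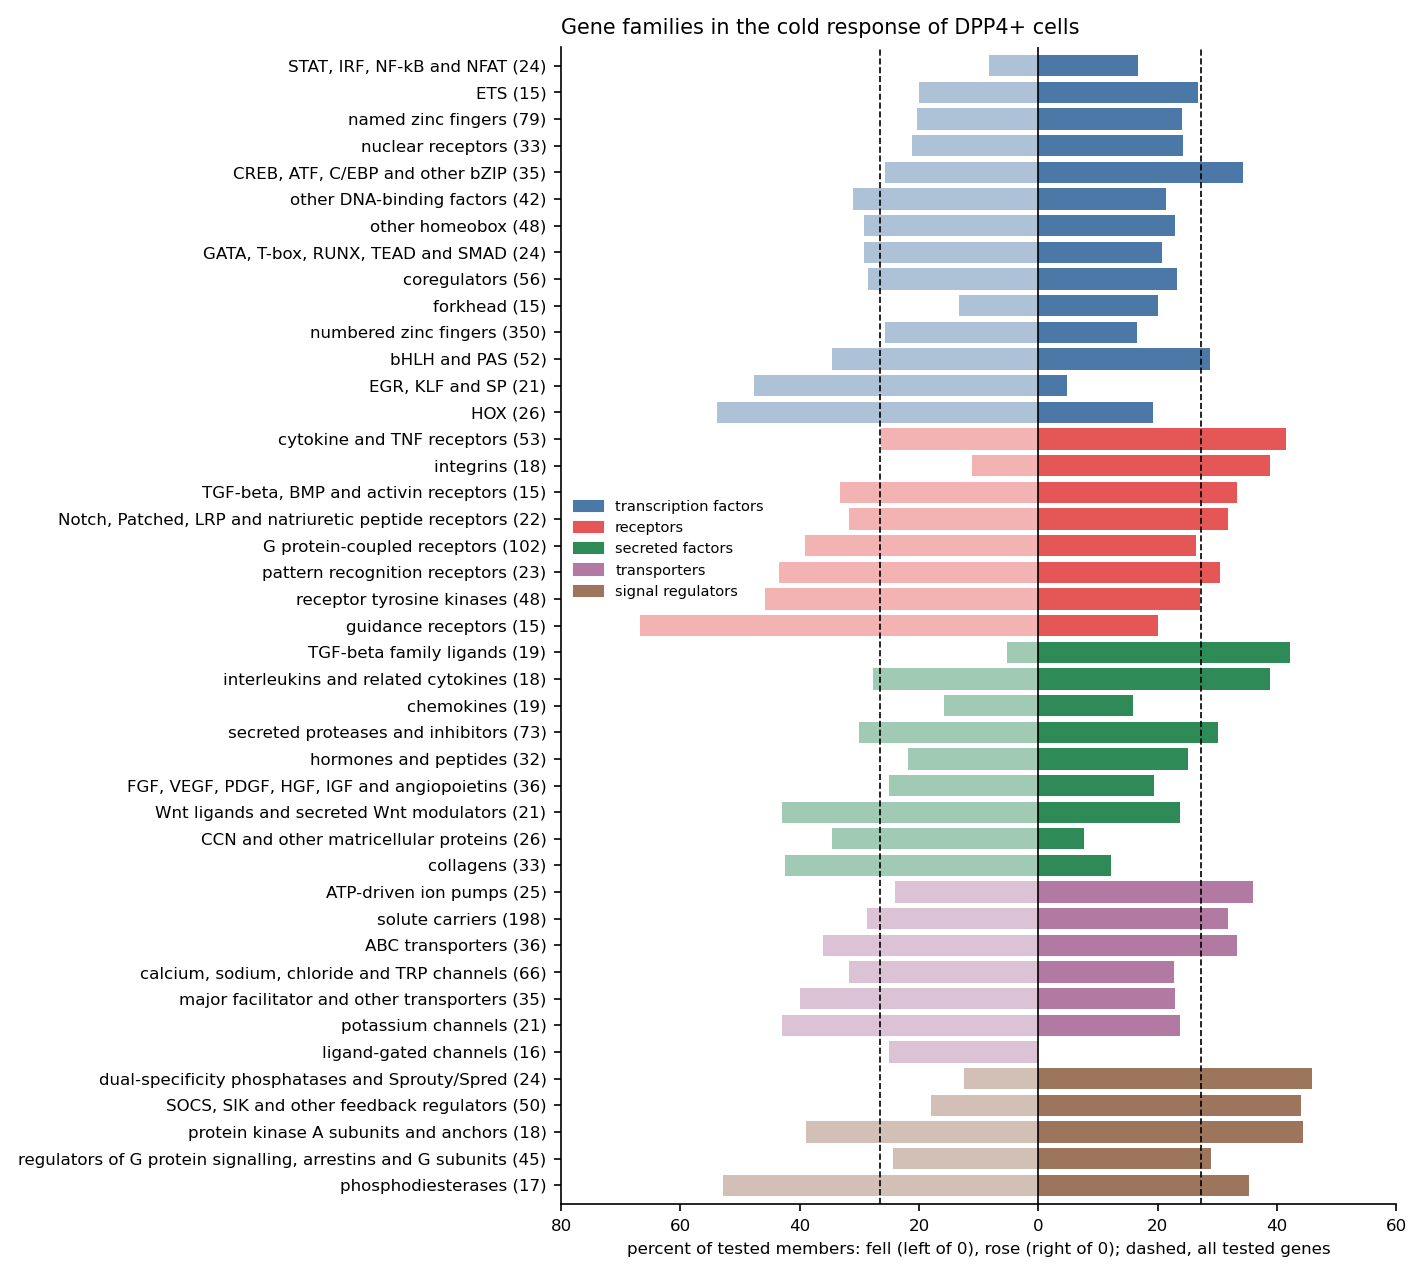
Share of the tested members of each gene family that fell (pale bars, left of 0) and rose (full bars, right of 0) in DPP4+ cells at 6 °C against 22 °C, in percent, for families with 15 or more tested members, whose number is in brackets. Dashed lines mark the shares over all tested genes, 26.6% fell and 27.3% rose, and HOX factors, guidance receptors and phosphodiesterases extend farthest to the left.

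Among the transcription factors named by the rule, the vitamin D receptor gene Vdr (chr15:97854427-97908296, GRCm38.p6) had the largest rise. Tox3, which is not in this class and is described with the switched genes, rose more (log2 difference 5.31). Vdr had 4211, 3375, 3380, 3552 and 2138 normalized reads in cold libraries 1 to 5, against 124, 132, 94.8, 126 and 101 in 22 °C libraries 1 to 5. Every cold library lay far above every library at 22 °C, and cold library 5 was the lowest of the cold ones. In each class the rule took only genes whose groups did not overlap, which held for 39.3% of all tested genes. The ratio of means was 28.8, with a log2 difference of 4.82 ± 0.16 (adjusted p = 2.51e-10).

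Crem encodes a cyclic AMP-responsive factor of the CREB family, and a short form of it made from an internal promoter represses cyclic AMP-induced genes. It had 1657, 1391, 1438, 1515 and 1020 normalized reads in cold libraries, against 132, 111, 165, 163 and 180 at 22 °C. The groups were apart, and the ratio of means was 9.35 (log2 difference 3.22 ± 0.15, adjusted p = 4.07e-09). Reads were counted per gene, so the forms of Crem were not separated.

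Sox11, an HMG-box factor of embryonic mesenchyme and neurons, had 363, 293, 299, 324 and 191 normalized reads in cold libraries, against a mean of 24.4 ± 5.82 and at most 30.5 at 22 °C. The lowest cold library was far above the highest library at 22 °C, with a ratio of means of 12.1 (log2 difference 3.54 ± 0.19, adjusted p = 1.05e-08). The zinc finger gene Glis1 averaged 163 ± 41.8 in cold and 27.1 ± 7.09 in 22 °C libraries, a 6.03-fold rise. Zfp52 rose 4.98-fold (309 ± 56.5 against 62.1 ± 4.28), and Hand2, a bHLH factor of heart and limb development, rose 3.55-fold, to 52.1 against 14.7.

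Among genes that reached a mean of 50 in one group, the largest fall of a transcription factor or coregulator was that of Lbh (chr17:72918305-72941946), a transcriptional cofactor of limb bud and heart. Lbh had 81.9, 79.6, 62.1, 67.4 and 61.3 normalized reads in cold libraries, against 1779, 1639, 1316, 1641 and 1440 at 22 °C. The cold libraries lay close together and far below all others (22.2-fold lower, log2 difference -4.45 ± 0.10, adjusted p = 3.58e-12). Zfp467, a zinc finger protein that favours adipocyte over bone differentiation in mouse stromal cells, averaged 18.6 ± 2.98 in cold and 91.6 ± 12.4 in 22 °C libraries. Id4, an inhibitor of bHLH factors, fell 4.67-fold (log2 difference -2.19, adjusted p = 1.52e-09), and the bHLH-PAS partner Arnt2 averaged 49.5 ± 6.75 in cold and 208 ± 31.4 in 22 °C libraries. Smad9, an effector of bone morphogenetic protein signalling, averaged 19.6 ± 2.34 in cold and 81.6 ± 12.8 in 22 °C libraries. The homeobox gene Meox2 was the sixth named fall, with 18.7 ± 7.32 in cold and 67.0 ± 4.21 in 22 °C libraries.

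HOX genes, which set positional identity along the body axis and in fat depots, had 14 of 26 tested members lower and 5 higher, with a median log2 difference of -0.52. With quantile normalization 9 fell and 6 rose, and with library totals set equal 15 fell and 2 rose. The 5 that rose were Hoxc6, Hoxc10, Hoxc4, Hoxc9 and Hoxc8, all of the HoxC cluster. Hoxc6 averaged 573 ± 94.0 in cold and 320 ± 16.5 in 22 °C libraries. Hoxc13 of the same cluster had the largest fall, to 5.25 ± 2.12 in cold libraries, against 32.5 ± 5.13 at 22 °C. These genes and the further examples in this section that lie outside the naming rule were named after their values were seen.

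The EGR, KLF and SP zinc fingers had 10 of 21 members lower and 1 higher, Egr2. Klf11 averaged 69.1 ± 14.9 in cold and 155 ± 14.2 in 22 °C libraries, and Klf15, which promotes adipocyte differentiation, averaged 41.9 ± 14.0 and 78.3 ± 10.3. Among nuclear receptors 8 of 33 rose and 7 fell. Pgr, the progesterone receptor, averaged 885 ± 200 in cold and 364 ± 45.2 in 22 °C libraries, and Nr3c1, the glucocorticoid receptor, 888 ± 140 and 1476 ± 77.2.

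Cebpa, which drives and maintains fat cell differentiation, fell to 526 ± 63.0 in cold libraries, against 1419 ± 140 at 22 °C (log2 difference -1.43 ± 0.09, adjusted p = 3.81e-08). Pparg, its partner and the master regulator of adipocytes, fell to 73.6 ± 14.8, against 105 ± 11.5 (log2 difference -0.52 ± 0.13, adjusted p = 0.00499), and these groups overlapped. Markers of mature adipocytes moved with them: 6 of 10 tested fell and 2 rose. The summed level of all 14 listed was 865 to 1535 in cold and 1620 to 2135 in 22 °C libraries. Adipoq, the adipocyte hormone adiponectin, averaged 230 ± 46.3 in cold and 332 ± 51.8 in 22 °C libraries. Of 16 markers of committed preadipocytes 8 fell and 3 rose. The part of either cell type in the lower Cebpa and Pparg was not tested.

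Several families held pairs that moved in opposite directions. The zinc finger repressor Snai1 averaged 870 ± 176 in cold and 480 ± 41.0 in 22 °C libraries, while its relative Snai2 fell (log2 difference -1.21, adjusted p = 5.11e-06). Sox4 averaged 1307 ± 232 in cold and 705 ± 38.5 in 22 °C libraries, and Sox9, a factor of cartilage and of early adipocyte precursors, averaged 159 ± 17.2 and 428 ± 21.9. Tead1, a DNA-binding partner of YAP, averaged 3416 ± 462 and 2151 ± 111 in the same order, and Tead3 averaged 179 ± 15.3 and 421 ± 20.8. All 6 passed the test with groups that did not overlap. Of the 350 numbered zinc fingers tested, 58 rose and 90 fell, but this turned to 86 rises and 54 falls with quantile normalization.

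**Figure D2:**
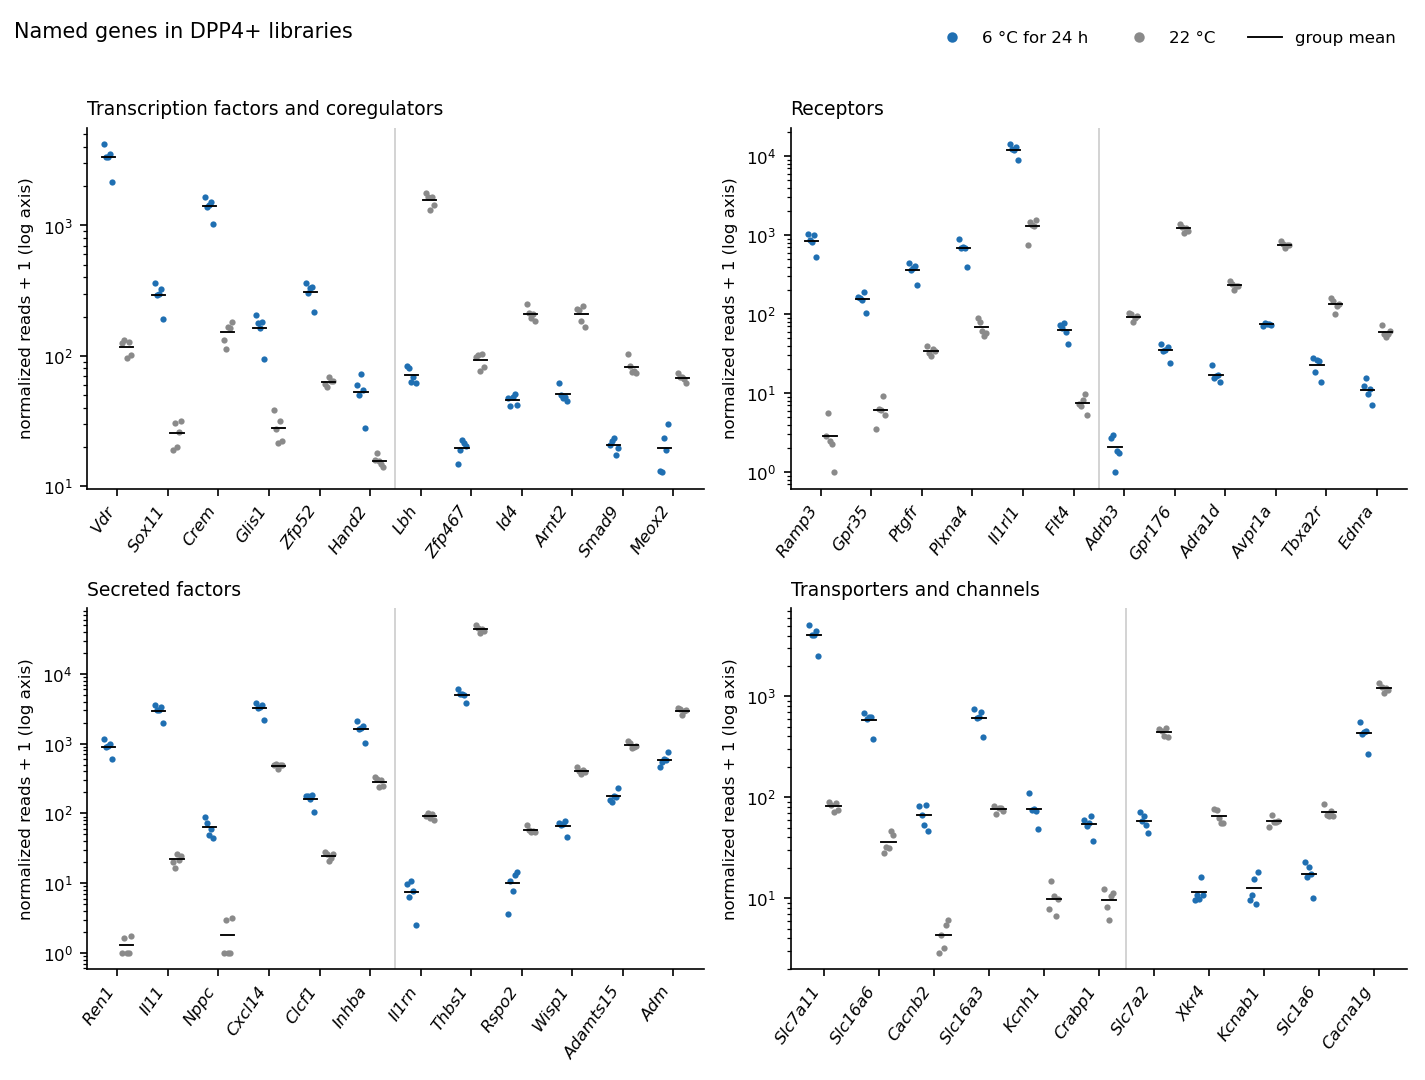
Normalized reads + 1 on a log axis in the DPP4+ libraries for the 6 largest rises (left of the grey line) and 6 largest falls (right of it) in 4 gene classes, with 5 falls shown for transporters. Blue points are the 5 libraries at 6 °C, grey points the 5 at 22 °C and black bars the group means. The groups overlap in no gene, because the naming rule took only genes whose groups do not overlap.

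Receptors of several families changed by large factors. Ramp3 (chr11:6658506-6677478) encodes a membrane partner that turns the calcitonin receptor-like receptor into a receptor for adrenomedullin. It was at 1020, 861, 819, 1010 and 532 normalized reads in cold libraries, and at 1.87, 4.58, 1.45, 1.25 and 0 at 22 °C. The 22 °C libraries were thus near zero and the cold ones far higher (log2 difference 8.40 ± 0.36, adjusted p = 2.6e-09). Adm, the gene of adrenomedullin itself, went the other way, with 458, 546, 595, 582 and 753 in cold libraries against 3222, 3102, 2603, 2929 and 3024 at 22 °C (5.07-fold lower, adjusted p = 4.42e-09).

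Gpr35, a G protein-coupled receptor with kynurenic acid as a proposed ligand, averaged 152 ± 32.7 in cold and 5.06 ± 2.04 in 22 °C libraries. Ptgfr, the receptor for prostaglandin F2-alpha, had 448, 358, 381, 401 and 233 normalized reads in cold libraries, against 38.6, 30.8, 28.9, 35.1 and 32.7 at 22 °C. All cold libraries were several times the highest library at 22 °C (log2 difference 3.39 ± 0.15, adjusted p = 2.16e-09). Adora2a, an adenosine receptor that raises cyclic AMP, averaged 225 ± 53.3 in cold and 30.7 ± 3.95 in 22 °C libraries.

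Among G protein-coupled receptors and their partners as a whole, 40 of 102 fell and 27 rose. The beta-3 adrenergic receptor Adrb3 (chr8:27225776-27230845) had 1.72, 1.97, 0, 0.853 and 0.748 normalized reads in cold libraries and 103, 98.2, 78.9, 88.3 and 93.1 at 22 °C. It was close to zero in every cold library (87.2-fold lower, log2 difference -5.60 ± 0.27, adjusted p = 2.66e-09). Adra1d, an alpha-1 adrenergic receptor, averaged 16.1 ± 3.33 in cold and 231 ± 21.8 in 22 °C libraries.

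Further receptors among the named falls are known from blood vessels. Avpr1a, a vasopressin receptor, had 70.7, 76.9, 74.8, 74.2 and 71.8 normalized reads in cold libraries, against 835, 764, 695, 745 and 756 at 22 °C. The libraries of each group lay close together and the groups far apart (10.3-fold lower, log2 difference -3.35 ± 0.06, adjusted p = 2.46e-13). The thromboxane receptor Tbxa2r averaged 21.4 ± 5.98 in cold and 132 ± 21.9 in 22 °C libraries, and the endothelin receptor Ednra 10.1 ± 3.13 and 58.4 ± 7.91. Gpr176, an orphan receptor known from the circadian clock of the brain, averaged 33.8 ± 6.56 in cold and 1216 ± 128 in 22 °C libraries.

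The interleukin 33 axis changed at the levels of ligand and receptor. Il1rl1 (chr1:40404864-40465418), the receptor ST2, had 14220, 12191, 11913, 13161 and 8976 normalized reads in cold libraries, against 754, 1463, 1348, 1316 and 1575 at 22 °C. The groups were far apart (9.36-fold, log2 difference 3.25 ± 0.18, adjusted p = 2.22e-08). A soluble form of ST2, which binds interleukin 33 without signalling, is made from the same gene, and the counts do not separate the forms. Il33, the ligand, averaged 5286 ± 665 in cold and 1121 ± 159 in 22 °C libraries (log2 difference 2.24 ± 0.11, adjusted p = 8.41e-09). Il1rap, the co-receptor that ST2 needs to signal, fell to 474 ± 65.5, against 1244 ± 72.0.

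Of 53 cytokine and TNF receptors tested 22 rose and 14 fell. Clcf1, a cytokine of the interleukin 6 family, had 179, 179, 162, 180 and 105 normalized reads in cold libraries and 26.7, 25.5, 19.5, 21.9 and 25.4 at 22 °C. All cold libraries lay above all libraries at 22 °C, cold library 5 being the lowest of them (6.75-fold, adjusted p = 1.26e-08). Cntfr, a receptor subunit that binds it, averaged 108 ± 27.6 and 22.3 ± 1.51, while Lifr, a signalling subunit of the same receptor complex, averaged 208 ± 19.3 in cold and 459 ± 14.7 in 22 °C libraries.

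Receptor tyrosine kinases had 22 of 48 members lower and 13 higher. Flt4, which is VEGF receptor 3, averaged 62.5 ± 13.5 in cold and 6.50 ± 1.64 in 22 °C libraries (9.62-fold). Kdr, VEGF receptor 2, had 307, 229, 249, 285 and 185 normalized reads in cold libraries, against 18.7, 28.2, 48.5, 24.4 and 32.0 at 22 °C, an 8.27-fold rise. Flt1, VEGF receptor 1, moved the other way, with 32.9 ± 6.26 in cold and 91.5 ± 5.02 in 22 °C libraries. Of 7 tested endothelial markers 2 rose, Kdr and Egfl7, and the summed level of the whole list was 2820 to 4305 in cold and 2607 to 3325 in 22 °C libraries. The receptor gene Tek made up most of that sum, with means of 2983 in cold and 2811 in 22 °C libraries (not called). The endothelial cadherin Cdh5 and Pecam1 did not pass the test, with log2 differences of 0.10 and -0.04.

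The VEGF ligands diverged too. Vegfa, the main angiogenic factor of hypoxia, averaged 5376 ± 912 in cold and 2081 ± 151 in 22 °C libraries. Vegfd, a ligand of VEGF receptor 3, fell to 1397 ± 98.9, against 6408 ± 533 (log2 difference -2.20 ± 0.07, adjusted p = 5.7e-11), and Vegfc, the other ligand of that receptor, to 81.2 ± 11.5, against 209 ± 17.2. Angpt4, a ligand of the endothelial receptor Tie2, averaged 65.8 ± 10.8 in cold and 338 ± 37.6 in 22 °C libraries.

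Plxna4, a semaphorin receptor of axon guidance, averaged 677 ± 183 in cold and 66.9 ± 15.3 in 22 °C libraries (10.1-fold). Guidance receptors as a family went mostly down, with 10 of 15 lower and 3 higher and a median log2 difference of -0.59. Nrp2, a co-receptor for semaphorins and VEGF, averaged 152 ± 8.13 and 514 ± 41.0, and Plxnd1 averaged 285 ± 55.5 and 843 ± 76.3. Among integrins, the receptors for matrix, 7 of 18 rose and 2 fell. Itga7, which binds laminin, averaged 73.7 ± 17.1 in cold and 9.54 ± 3.05 in 22 °C libraries, and Itga8 averaged 48.9 ± 12.6 and 126 ± 13.2.

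Among secreted factors, the renin gene Ren1 (chr1:133350674-133360320) had the largest rise. Renin cleaves angiotensinogen and is known from the juxtaglomerular cells of the kidney, where cyclic AMP drives its gene. Ren1 had 1151, 895, 912, 975 and 597 normalized reads in cold libraries, against 0, 0.655, 0, 0 and 0.727 at 22 °C. The 22 °C libraries held 0 or 1 read each, so the ratio of 3277 has a 95% counting interval of 929 to 27724, which covers counting error only.

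Il11, a fibrogenic cytokine of the interleukin 6 family, had 3569, 2988, 3041, 3345 and 1940 normalized reads in cold libraries and 19.3, 15.7, 25.3, 20.7 and 23.3 at 22 °C. The groups were far apart, with cold library 5 the lowest and cold library 1 the highest of the cold ones, and the ratio of means was 143 (log2 difference 7.08 ± 0.16, adjusted p = 1.5e-11). Cxcl14, a chemokine also released by active brown fat, averaged 3249 ± 628 in cold and 478 ± 30.4 in 22 °C libraries (6.80-fold). The neutrophil-attracting chemokine Cxcl5 averaged 786 ± 139 in cold and 219 ± 6.03 in 22 °C libraries. Cxcl12, which retains progenitor and immune cells in stromal niches, averaged 3052 ± 412 and 6888 ± 588 in the same order.

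Nppc encodes C-type natriuretic peptide, a ligand that raises cyclic GMP. Nppc had 88.8, 71.0, 48.5, 58.8 and 43.4 normalized reads in cold libraries, against 0, 1.96, 0, 0 and 2.18 at 22 °C. It was at 0 in 3 of the 5 libraries at 22 °C and at 43.4 or more in each cold library (74.9-fold, adjusted p = 1.05e-07). The clearance receptor Npr3, which removes natriuretic peptides, fell to 105 ± 17.7, against 344 ± 41.4.

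Of 19 TGF-beta family ligands tested 8 rose and 1 fell, with a median log2 difference of 0.31. Inhba, the subunit of activin A, had 2074, 1625, 1657, 1813 and 1026 normalized reads in cold libraries, against 331, 305, 235, 295 and 249 at 22 °C. The lowest cold library was well above the highest at 22 °C (5.79-fold, log2 difference 2.50 ± 0.16, adjusted p = 7.29e-08). Tgfb1 averaged 655 in cold and 358 in 22 °C libraries (log2 difference 0.85), and Tgfb3, the member that fell, averaged 275 ± 37.4 and 553 ± 28.6. Of the receptors of this family 5 of 15 rose and 5 fell. Tgfbr1, the type I receptor for TGF-beta, averaged 3255 ± 330 in cold and 1567 ± 82.6 in 22 °C libraries, whereas Acvr2a, a type II activin receptor, averaged 433 ± 31.7 and 806 ± 64.7.

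Wnt ligands and secreted Wnt modulators had 9 of 21 members lower and 5 higher. Rspo2, which amplifies Wnt signals, averaged 8.93 ± 4.34 in cold and 56.8 ± 6.17 in 22 °C libraries (6.36-fold lower). Its receptor Lgr5 averaged 22.4 ± 10.2 and 106 ± 11.5. Wnt16 averaged 86.4 ± 12.7 in cold and 437 ± 51.3 in 22 °C libraries, and the Wnt inhibitor Dkk2 averaged 419 ± 71.0 and 1664 ± 92.0.

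Several families of matrix genes had more falls than rises. Thbs1 (chr2:118111876-118127133), thrombospondin 1, had 6061, 5129, 5096, 4927 and 3817 normalized reads in cold libraries and 50418, 45333, 38416, 43765 and 40950 at 22 °C. It was among the most abundant transcripts named and lost most of its level (8.74-fold lower, log2 difference -3.14 ± 0.11, adjusted p = 2.37e-10). Of 26 matricellular genes 9 fell and 2 rose. Wisp1, of the CCN family, averaged 65.7 ± 12.5 in cold and 407 ± 35.5 in 22 °C libraries, and its relatives Wisp2 (929 ± 83.4 against 3999 ± 398) and Ctgf (816 ± 318 against 2750 ± 252) fell too.

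Of 33 collagens 14 fell and 4 rose, or 20 and 4 with library totals set equal. Col24a1 averaged 106 ± 27.6 in cold and 433 ± 59.6 in 22 °C libraries, and Col12a1 averaged 14032 ± 2749 and 20482 ± 1804. The 4 that rose were Col7a1, Col20a1 and the basement membrane chains Col4a1 and Col4a2. Col4a1 averaged 18082 ± 1302 in cold and 11009 ± 523 in 22 °C libraries. Spon2, a secreted matrix protein, rose as well, to 3573 ± 634, against 670 ± 46.4. The falls of these families were not particular to DPP4+ cells. In cold DPP4- cells 12 of the 33 collagens fell and none rose, with a median log2 difference of -0.35, against -0.27 in DPP4+ cells. Of the 26 matricellular genes 4 fell there and none rose, with a median of -0.20, against -0.22 in DPP4+ cells.

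Secreted proteases and inhibitors split evenly, with 22 of 73 higher and 22 lower. The aggrecanase Adamts15 averaged 176 ± 34.3 in cold and 956 ± 88.1 in 22 °C libraries, and Adamts9, a protease of the same family, 1127 ± 260 and 204 ± 17.8. Il1rn, the natural antagonist of interleukin 1, averaged 6.38 in cold and 91.1 in 22 °C libraries, a 14.3-fold fall.

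Carriers of amino acids and monocarboxylates were among the largest changes in transporters. Slc7a11 (chr3:50364936-50499087), which exchanges glutamate for cystine and so feeds glutathione synthesis, had 5107, 4083, 4000, 4415 and 2532 normalized reads in cold libraries. It had 89.5, 83.2, 70.9, 85.8 and 74.2 at 22 °C, 49.9-fold less (log2 difference 5.59 ± 0.15, adjusted p = 5.23e-11). Slc7a2, a carrier of arginine and other cationic amino acids, moved the other way, with 57.3 ± 10.6 in cold and 440 ± 38.3 in 22 °C libraries (7.66-fold lower, adjusted p = 5.49e-10).

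Several monocarboxylate carriers rose, while Slc16a12 of the same family fell (log2 difference -2.30, adjusted p = 0.00044). Slc16a6, a carrier of ketone bodies, averaged 577 ± 117 in cold and 35.0 ± 7.84 in 22 °C libraries (16.5-fold). Slc16a3, the lactate exporter MCT4, had 748, 605, 627, 691 and 397 normalized reads in cold libraries, against 80.8, 67.5, 76.7, 77.0 and 72.0 at 22 °C (8.20-fold, adjusted p = 4.73e-09). Slc16a1, or MCT1, averaged 5451 ± 241 and 2129 ± 366. Slco2a1, a prostaglandin carrier, averaged 3098 ± 293 in cold and 1082 ± 107 in 22 °C libraries. Slc40a1, the iron exporter ferroportin, fell to 8.95 ± 2.56, against 33.2 ± 5.90. Of all 198 solute carriers 63 rose and 57 fell, or 51 and 58 with library totals set equal.

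Channel genes changed in both directions. Cacnb2, a beta subunit of voltage-gated calcium channels, averaged 65.2 ± 16.9 in cold and 3.36 ± 1.39 in 22 °C libraries (19.4-fold). The L-type pore subunit Cacna1d averaged 125 ± 24.4 and 38.5 ± 4.21, while the T-type pore subunit Cacna1g averaged 429 ± 104 in cold and 1206 ± 102 in 22 °C libraries. Kcnh1, a voltage-gated potassium channel, averaged 75.3 ± 21.4 and 8.87 ± 3.11, and Kcnab1, a potassium channel beta subunit, 11.6 ± 4.11 and 56.6 ± 5.84. Potassium channels as a family had 9 of 21 members lower and 5 higher, or 6 and 6 with quantile normalization.

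The glutamate carrier Slc1a6 averaged 16.3 ± 4.81 in cold and 70.0 ± 8.74 in 22 °C libraries, and Xkr4, of the scramblase family, 10.5 ± 2.79 and 64.1 ± 10.3. Crabp1, an intracellular carrier of retinoic acid, averaged 52.7 ± 10.5 in cold and 8.61 ± 2.46 in 22 °C libraries (6.12-fold).

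Genes that break down cyclic nucleotides changed in both directions. Of 17 phosphodiesterases tested 6 rose, 9 fell and 2 did not pass the test. The 3 largest rises were in enzymes that break down cyclic AMP. Pde4d had 2574, 2088, 2043, 2201 and 1351 normalized reads in cold libraries, against 104, 104, 148, 127 and 146 at 22 °C. The groups were far apart, and the ratio of means was 16.3 (adjusted p = 1.36e-09). Pde4b averaged 303 ± 44.0 in cold and 57.2 ± 3.93 in 22 °C libraries (5.31-fold), and Pde10a, which also breaks down cyclic GMP, averaged 1442 ± 173 and 435 ± 95.3.

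On the cyclic GMP side, all 3 tested subunits of soluble guanylyl cyclase, the nitric oxide receptor, fell. Gucy1b1 (chr3:82032004-82074711) had 6.04, 7.23, 6.80, 4.26 and 11.2 normalized reads in cold libraries and 110, 117, 87.6, 110 and 98.9 at 22 °C. Its alpha partner Gucy1a1 averaged 2.16 ± 1.63 in cold and 47.0 ± 13.6 in 22 °C libraries, and Gucy1a2 averaged 59.5 ± 6.55 and 167 ± 18.2. Pde1b, a phosphodiesterase driven by calcium, averaged 4.34 ± 2.12 and 42.6 ± 8.59. Mrvi1, a target of cyclic GMP-dependent protein kinase, averaged 1.63 ± 1.17 in cold and 32.8 ± 5.84 in 22 °C libraries.

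Prkar2b, a regulatory subunit of protein kinase A, averaged 138 ± 28.5 in cold and 509 ± 56.7 in 22 °C libraries, and the anchor Akap2 averaged 2930 ± 609 and 995 ± 85.6. Rgs16 and Rgs3, which end G protein signals, fell 4.61-fold and 3.43-fold, whereas Rgs2 of the same family averaged 122 ± 20.1 in cold and 42.8 ± 4.47 in 22 °C libraries. Feedback inhibitors of growth factor and cytokine signals rose more often than they fell: 11 of 24 dual-specificity phosphatases and Sprouty or Spred genes rose and 3 fell, and 22 of 50 SOCS, SIK and related genes rose and 9 fell. Spry4 averaged 109 ± 18.2 in cold and 38.1 ± 5.72 in 22 °C libraries. Ptprn, a protein of secretory granules, averaged 2341 ± 509 and 540 ± 58.5.

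A set of genes was switched on from near zero. By a rule on the measured values, a mean under 3 normalized reads at 22 °C and at least 30 in the cold, 18 genes of the whole table were on in the cold, 17 of them with an established symbol. In the opposite direction 7 genes were on at 22 °C and near zero in the cold. Since the rule used these values, the set is a description, and no test was made of it. P-values given for some of its members come from the limma fit of all tested genes. Neither they nor the counting intervals are a test of the switch. Ppp1r3g, with a cold mean of 33.0, was just inside the rule for the genes switched on and Kcnk10, with 28.3, just outside it. Mrvi1 (32.8 at 22 °C) and Serpina3g (27.7) were their counterparts among genes switched off.

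Sptssb (chr3:69819538-69861363), a small subunit of serine palmitoyltransferase that shifts the chain length of sphingoid bases, had 1422, 1206, 1284, 1408 and 880 normalized reads in cold libraries and 0 in each of the 5 libraries at 22 °C. With the limit for a group without reads set at 3 reads in all, it was at least 3081-fold higher. Hal, which starts histidine breakdown, averaged 162 ± 34.2 in cold and 2.38 ± 0.921 in 22 °C libraries. Liph, a phospholipase that makes lysophosphatidic acid, averaged 118 ± 23.5 and 2.08 ± 1.67. Tox3, a chromatin-associated factor, averaged 89.2 ± 15.3 and 1.38 ± 0.929.

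Il20ra, a receptor subunit for interleukins 20 and 24, had 56.9, 51.3, 50.5, 40.9 and 31.4 normalized reads in cold libraries, against 0, 0.655, 0, 0.626 and 0 at 22 °C. It was at 0 in 3 libraries at 22 °C, and the ratio of 180 has a 95% counting interval of 47.2 to 1428. Clstn3, a synaptic adhesion protein whose gene also makes a short form in thermogenic fat cells, averaged 65.7 ± 14.0 in cold and 2.77 ± 0.849 in 22 °C libraries. Coagulation factor F5 averaged 57.3 ± 14.4 and 1.55 ± 0.995. Scrt1, a zinc finger repressor of neurons, averaged 45.5 ± 9.86 in cold and 2.80 ± 1.49 in 22 °C libraries, and the ratio of means of the cadherin Cdh17 was 25.9.

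Ucp1, the uncoupling protein of thermogenic adipocytes, was also switched on. It had 81.1, 63.8, 45.6, 56.3 and 52.4 normalized reads in cold libraries and 0, 1.31, 1.45, 0.626 and 0.727 at 22 °C, a 72.8-fold ratio of means. Of the tested markers of mature adipocytes none rose other than Ucp1 and Dgat2, as given above with the summed level of the list. The part of such cells in the Ucp1 signal was not tested. Trdc, the constant region of the T cell receptor delta chain, averaged 47.6 ± 12.9 in cold and 1.07 ± 0.817 in 22 °C libraries. The summed level of lymphocyte markers was 16.4 to 60.5 in cold and 47.3 to 83.2 in 22 °C libraries, with Cd3g at 0 in all of them. Most of that sum was the immunoglobulin gene Ighm (means of 24.85 in cold and 40.72 in 22 °C libraries) and Gata3 (12.44 and 12.26). These were the only members that reached the limit for testing, so the sum says little about T cells. The part of T cells in the Trdc signal was not tested.

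Of the genes switched off, Lmod1, an actin nucleator of smooth muscle, fell farthest. It had 0.862, 0.657, 0, 0 and 0 normalized reads in cold libraries, against 126, 126, 77.4, 109 and 89.4 at 22 °C. The cold libraries held 0 or 1 read each, and the ratio of 347 has a 95% counting interval of 91.4 to 2741. Cdh3, or P-cadherin, averaged 1.55 ± 1.05 in cold and 38.1 ± 5.81 in 22 °C libraries, and Slc27a6, a fatty acid transport protein, 2.73 ± 1.54 and 39.2 ± 5.36. Adrb3, Gucy1a1 and Mrvi1, described above, and Ankrd34a completed the set.

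**Figure D3:**
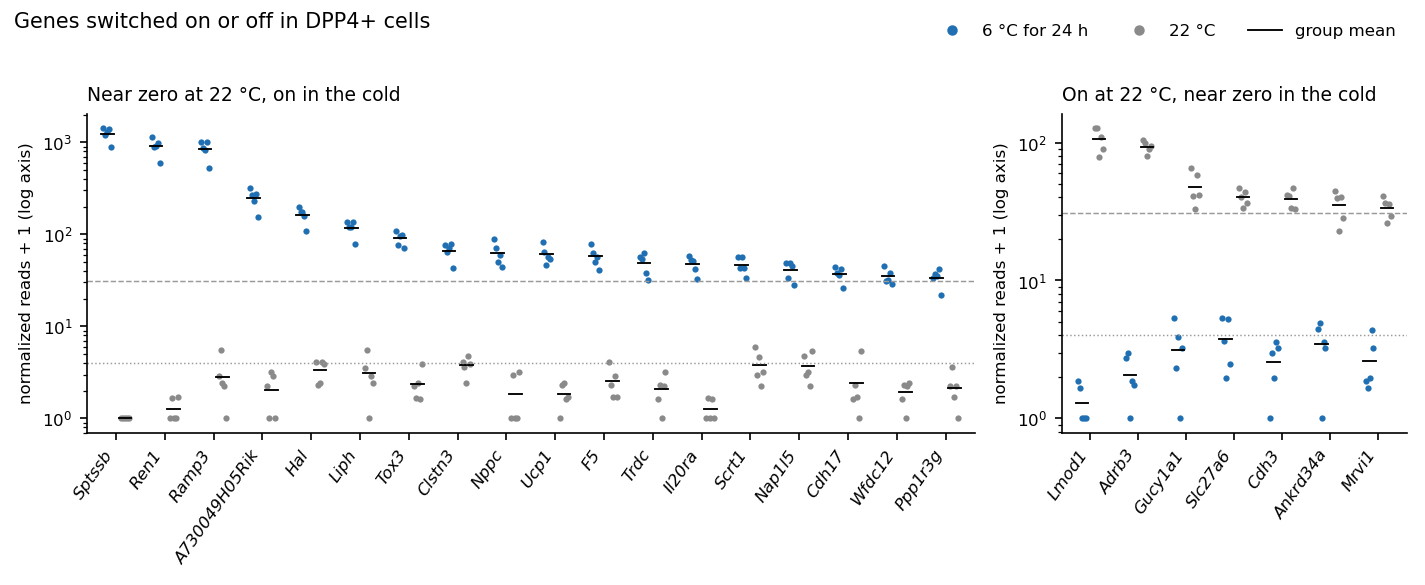
Normalized reads + 1 on a log axis for the genes switched on (left panel) and off (right panel) in DPP4+ cells, with the libraries at 6 °C in blue, those at 22 °C in grey and group means as black bars. The dotted line marks a mean of 3 and the dashed line a mean of 30, and no library of the low group exceeds 4.97 while none of the high group is below 20.9.

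The same 25 genes were then read in DPP4- libraries, which the rule had not used. Of the 18 genes switched on, 11 had a mean under 3 in DPP4- cells at 22 °C and 10 had one in the cold, and none reached 30 in either group. No gene met the same rule in DPP4- cells. Ucp1 came nearest, with means of 10.1 in cold and 0.252 in 22 °C DPP4- libraries (log2 difference 3.04, adjusted p = 0.000142). Of the genes switched off, 2 were well expressed in DPP4- cells at both temperatures. Gucy1a1 averaged 259 in cold and 206 in 22 °C DPP4- libraries, and Mrvi1 averaged 90.8 and 71.6.

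Beyond the classes, lists of pathway genes were counted against the shares of all genes given above. Every one of 28 ribosome biogenesis genes rose, by small amounts (median log2 difference 0.44). Bop1, a factor of the large ribosomal subunit, averaged 667 ± 68.5 in cold and 366 ± 26.3 in 22 °C libraries. Of 22 genes of the unfolded protein response of the endoplasmic reticulum (ER) 20 rose and none fell (median 0.43). The ER chaperone gene Hyou1 averaged 3865 ± 440 and 1756 ± 34.8. Of 21 targets of NRF2, the regulator of antioxidant defence, 19 rose and none fell (median 0.87). Nqo1, a quinone reductase, averaged 495 ± 116 in cold and 90.7 ± 6.84 in 22 °C libraries, and Pgd of the pentose phosphate pathway 7262 ± 1250 and 2099 ± 75.0. Nfe2l2, the gene of NRF2, averaged 4387 ± 130 and 2851 ± 217.

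Of 22 CREB target genes 14 rose and 3 fell (median 0.77). Dio2, the deiodinase that activates thyroid hormone, had 6607, 5360, 5430, 5687 and 3476 normalized reads in cold libraries, against 5.60, 15.7, 5.79, 6.89 and 13.8 at 22 °C. All cold libraries lay far above all libraries at 22 °C (556-fold, log2 difference 9.06 ± 0.27, adjusted p = 1.37e-10). Nr4a2, Sik1 and Gem, which respond early to cyclic AMP in many cells, were among those that rose. Nr4a1, Fosb, Nr4a3, Dusp1 and Per1 did not pass the test: Nr4a1 averaged 8054 ± 1120 in cold and 8432 ± 1548 in 22 °C libraries (adjusted p = 0.735), and Fos 2538 ± 971 and 2527 ± 397 (adjusted p = 0.83). Fos belongs to the 29 tested immediate early and tissue dissociation genes, of which 6 rose and 2 fell, a smaller share than that of all genes in either direction.

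The ATF4 and amino acid list had 14 of 25 members lower and 4 higher (median -0.27). The 4 were Slc7a11, its partner Slc3a2, Cebpb and Atf4 itself, while Phgdh and Psat1 of serine synthesis and Asns of asparagine synthesis were among those that fell. Phgdh averaged 165 ± 18.4 in cold and 379 ± 26.1 in 22 °C libraries, and Asns 682 ± 78.7 and 945 ± 83.1. Cholesterol synthesis had 14 of 24 members higher and 5 lower. Pmvk, an enzyme of the mevalonate steps, rose (log2 difference 1.43 ± 0.10, adjusted p = 1.49e-07). Glycolysis had 13 of 23 higher and 5 lower, Slc16a3 and Slc16a1 among those higher. Nuclear genes of oxidative phosphorylation had 20 of 33 higher and none lower, or 11 and none with library totals set equal. Gapdh (299 ± 44.6 against 145 ± 5.70) and Cycs (272 ± 34.2 against 150 ± 9.62), which rose in these lists, have processed pseudogenes that can take part of their reads, so their levels are uncertain.

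Cell cycle genes had 24 of 33 members lower and 1 higher, Pcna (median -0.51). Rrm1, a subunit of ribonucleotide reductase, averaged 743 ± 71.8 in cold and 1383 ± 96.7 in 22 °C libraries, and Ccnb2, a mitotic cyclin, 87.5 ± 11.8 and 211 ± 21.8. Contractile genes and targets of YAP, the effector of mechanical signals, had 20 of 22 members lower and none higher (median -1.12). Cnn2, a calponin, had 463, 403, 408, 458 and 396 normalized reads in cold libraries, against 2257, 2052, 1701, 1994 and 1815 at 22 °C. The groups were tight and far apart (4.61-fold lower, log2 difference -2.20 ± 0.08, adjusted p = 1.53e-10). Amotl2, a YAP target and regulator, averaged 1173 ± 103 in cold and 3594 ± 252 in 22 °C libraries.

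Markers of pericytes and smooth muscle moved with the contractile genes: 9 of 12 fell and 2 rose, Kcnj8 and Abcc9, and 6 of the 12 are also on the contractile list. The summed level of all 15 listed markers was 4657 to 7691 in cold and 10376 to 13413 in 22 °C libraries. The part of such cells in the contractile genes was not tested. Summed markers of macrophages (193 to 284 in cold, 191 to 223 at 22 °C) and of granulocytes and mast cells (2.91 to 9.86 and 1.87 to 8.72) were low in both groups.

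Small lists on hormones and rhythm moved little or both ways. Glucocorticoid targets had 2 of 17 higher and 5 lower: Ddit4 averaged 1889 ± 415 in cold and 154 ± 16.5 in 22 °C libraries, and Tsc22d3 averaged 272 ± 34.1 and 402 ± 25.7. Clock genes had 4 of 18 higher and 4 lower, with Arntl at 1013 ± 74.1 and 526 ± 54.6 and Per3 at 194 ± 40.3 and 536 ± 41.5. Interferon-stimulated genes had 4 of 29 higher and 4 lower. In the hyaluronan list 4 of 12 rose and 3 fell. Cemip, which degrades hyaluronan, averaged 221 ± 45.7 in cold and 12532 ± 1286 in 22 °C libraries, a 56.7-fold fall, and Vcan, a proteoglycan that binds hyaluronan, averaged 26830 ± 4722 and 7856 ± 615.

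**Figure D4:**
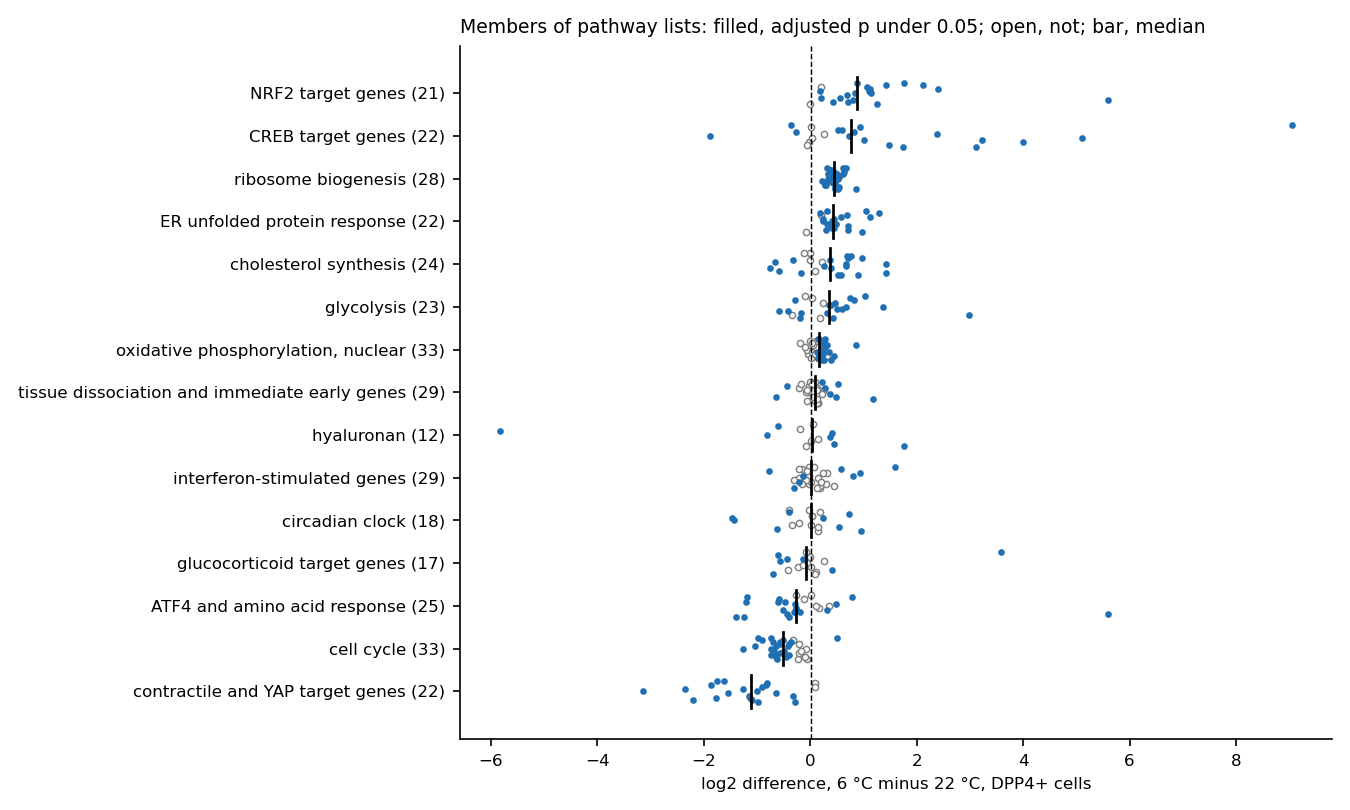
Log2 difference between 6 °C and 22 °C in DPP4+ cells for each tested member of 15 pathway lists, with the number of members in brackets. Filled points passed an adjusted p of 0.05, open points did not, black bars are list medians and the dashed line is the median of all genes, 0.01. The NRF2 list has the highest median, 0.87, and the contractile and YAP list the lowest, -1.12.

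Promoter windows of 250 bases before to 50 after the start, from RefSeq on GRCm38.p6, were searched on both strands for the cyclic AMP response element. The reason was that 14 of 22 CREB targets rose and 3 fell, in a list chosen with earlier results of these data known. Windows were found for 9917 of the 12725 tested genes, some with several starts, which gave 12698 windows. The full element TGACGTCA was in 4.69% of 128 windows of genes that rose at least 4-fold, 3.97% of 126 windows of genes that fell at least 4-fold and 3.03% of all windows. Its shorter core CGTCA, which lies within the full element, was in 27.3%, 19.0% and 30.7% in the same order. The AP-1 site TGANTCA was in 7.81%, 5.56% and 5.15%, and the antioxidant response element TGACNNNGC in 14.1%, 17.5% and 14.3%. A match is a description of letters and not a site of binding.

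Examples of windows that hold the full element are shown on the strand of the gene, with the element in capitals. Dio2 and Clstn3 are genes named above, and Areg, an EGF receptor ligand of the CREB list with 19.8 ± 6.70 normalized reads in cold and 1.51 ± 1.05 in 22 °C libraries, was chosen after its values were seen. The element begins 95 bases before the start of Dio2 (chr12:90739039-90739288, minus strand), 1 base before that of Clstn3 (chr6:124464778-124465034, minus strand) and 61 bases before that of Areg (chr5:91139349-91139598, plus strand).
Dio2: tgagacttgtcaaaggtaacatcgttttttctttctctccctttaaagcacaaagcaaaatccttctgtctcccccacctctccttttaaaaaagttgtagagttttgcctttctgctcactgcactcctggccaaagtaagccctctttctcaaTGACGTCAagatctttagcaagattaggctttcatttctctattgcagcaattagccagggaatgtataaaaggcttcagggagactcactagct
Clstn3: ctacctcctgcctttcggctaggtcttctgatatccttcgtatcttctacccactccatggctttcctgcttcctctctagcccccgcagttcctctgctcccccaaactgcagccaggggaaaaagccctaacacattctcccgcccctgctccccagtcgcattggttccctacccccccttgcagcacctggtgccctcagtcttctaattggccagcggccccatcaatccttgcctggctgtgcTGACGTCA
Areg: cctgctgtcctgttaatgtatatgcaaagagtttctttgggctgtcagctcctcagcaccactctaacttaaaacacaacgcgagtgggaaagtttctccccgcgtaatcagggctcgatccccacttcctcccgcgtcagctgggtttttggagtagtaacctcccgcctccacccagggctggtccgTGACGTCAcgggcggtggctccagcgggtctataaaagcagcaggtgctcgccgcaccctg

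The cold effect was compared with that in DPP4- cells in a fit of all 20 libraries. In DPP4- cells 686 of the same genes passed the test (5.39%), 265 higher and 421 lower. The difference of the cold effects between DPP4+ and DPP4- cells passed at 4304 genes (33.8%), positive at 2194 and negative at 2110. With library totals set equal this split was 1130 positive and 3031 negative, with a median difference of -0.13, and the split in DPP4- cells was 937 higher and 228 lower. By class, the difference passed for 243 of 835 transcription factors (29.1%), 133 of 296 receptors (44.9%) and 126 of 322 secreted factors (39.1%). It passed for 168 of 402 transporters (41.8%) and 77 of 165 signalling regulators (46.7%), against 33.8% of all genes.

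The large changes of DPP4+ cells were mostly not seen in DPP4- cells. Of the 137 genes that rose at least 4-fold in DPP4+ cells, 4 rose and 5 fell in DPP4- cells, with a median log2 difference of -0.03. Of the 126 that fell at least 4-fold, 7 fell and 3 rose there, with a median of -0.00. Over all 12725 tested genes 265 rose and 421 fell in DPP4- cells, 5.39% in all, with a median of 0.00. Genes were admitted by their mean in DPP4+ libraries, so some are near zero in DPP4- cells, where a change could hardly be called. Vdr averaged 13.6 in cold and 14.1 in 22 °C DPP4- libraries, and Slc7a11 averaged 36.1 and 35.5.

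Some of these genes stood at a high level in DPP4- cells at both temperatures. Sox11 averaged 449 in cold and 456 in 22 °C DPP4- libraries, above its level in cold DPP4+ cells on the deposited scale. Its difference of cold effects was 3.57 (adjusted p = 8.57e-11). Cxcl14 averaged 15657 in cold and 18440 in 22 °C DPP4- libraries. Gucy1b1 averaged 344 in cold and 314 in 22 °C DPP4- libraries, so that its level in DPP4+ cells at 22 °C was already the lower one. Thbs1 averaged 27376 in cold and 26493 in 22 °C DPP4- libraries.

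Opposite effects were tested as a difference. Both effects passed at 427 genes, and the directions were opposite at 152 of them and the same at the others. Over all tested genes 54.0% passed in DPP4+ cells and 5.39% in DPP4- cells. With library totals set equal the DPP4- split turned to 937 higher and 228 lower, and opposite directions were not counted in that setting. Inhba averaged 8.20 in cold and 20.9 in 22 °C DPP4- libraries, and the difference of its cold effects was 4.01 (adjusted p = 7.24e-06). Ptprn had a difference of 2.79 (adjusted p = 1.03e-10). Cebpa averaged 640 in cold and 471 in 22 °C DPP4- libraries, a rise that passed the test (adjusted p = 0.00247), and its difference was -1.87 (adjusted p = 1.48e-11). Of the 10 tested markers of mature adipocytes 4 rose and none fell in cold DPP4- cells (median log2 difference 0.79), and their part in the Cebpa rise was not tested. Asns rose in DPP4- cells as well, to 652 against 494 (adjusted p = 0.00716), with a difference of -0.88 (adjusted p = 4.81e-06).

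Some changes that passed in DPP4+ cells passed in the same direction in DPP4- cells. Vegfa passed in DPP4- cells with 4322 in cold and 3293 in 22 °C libraries (adjusted p = 0.0282) and Vegfd with 651 and 789 (adjusted p = 0.0241), and both differences passed. Socs2 averaged 151 in cold and 89.3 in 22 °C DPP4- libraries (adjusted p = 0.000349), and the difference of its cold effects, 0.01, did not pass (adjusted p = 0.973). Sfrp1, a secreted Wnt inhibitor, averaged 7900 ± 1489 in cold and 13903 ± 1289 in 22 °C DPP4+ libraries. In DPP4- cells Sfrp1 averaged 1108 and 1680, with a difference of effects of -0.22 that did not pass (adjusted p = 0.378). Among genes taken by the naming rule, Ptprz1, a receptor phosphatase, averaged 32.0 ± 11.4 in cold and 126 ± 19.0 in 22 °C DPP4+ libraries, and its difference did not pass either (-1.17, adjusted p = 0.18). It averaged 1.47 in cold and 3.48 in 22 °C DPP4- libraries, near zero, where its change did not pass (adjusted p = 0.315).

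**Figure D5:**
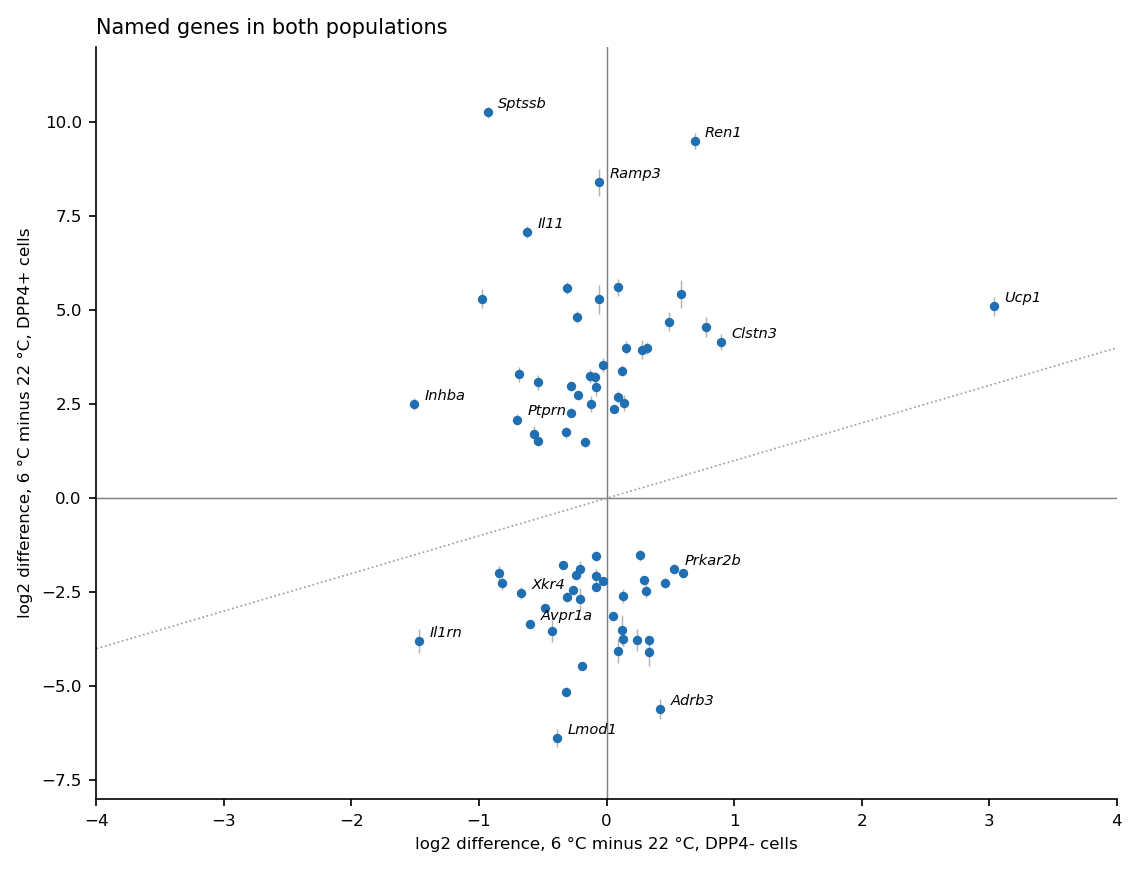
Log2 difference between 6 °C and 22 °C in DPP4+ cells (vertical axis, bars are the standard error) against that in DPP4- cells (horizontal axis) for the named rises, falls and switched genes. The dotted line marks equal effects, and most genes lie near 0 on the horizontal axis, with Ucp1 at 3.04 the farthest to the right.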

How the data were processed

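RNA was measured by sequencing of PDGFRb+ cells isolated by flow cytometry; RNAqueous and NEBNext Ultra II kits were used, per the labels' protocols. The submitters' processing notes name Trim Galore 0.4.1, HISAT2 2.0.1, featureCounts 1.4.6, DESeq2 1.6.3 and the builds GRCm38 and mm10. Strandedness and the annotation were not given in the sources used here. The authors deposited one table of normalized counts per gene for all libraries (signal scaled to sequencing depth, not raw counts). All values (100%) were whole multiples of one step per library within 0.1 reads, which recovered whole reads. Genes without a symbol (958) held 0.0721 to 0.0824% of reads in DPP4+ libraries, and 26 symbols turned into dates by a spreadsheet were restored by gene ID.

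Values were tested as log2(value + 1), so fold changes of low genes are understated. limma 3.58.1 in R 4.3.3 was run with trended, robust variances on the 10 DPP4+ libraries, and on all 20 for the DPP4- effect and the difference, two-sided, with Benjamini-Hochberg adjustment over 12725 genes at 0.05. Since the table holds normalized values, limma was the main test, and edgeR 4.0.16 and DESeq2 1.42.0 were run on recovered reads as alternatives. Ratios are of group means, with errors as SD over 5 libraries or SE of the fit. The scripts were tested on simulated data.

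In each class the 6 largest rises and 6 largest falls were named among genes that passed, whose groups did not overlap and whose higher mean was at least 50, together with 10 switched genes and, per list, the 3 members of lowest p. Predicted genes were passed over. Some genes that the rule takes are not reported here. Members, families and lists were chosen with earlier results of these data known. Coordinates and promoter sequences are RefSeq, GRCm38.p6. Counting intervals and floors cover counting error only.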

Additional observations from a re-analysis of the deposited data

Results flagged for a closer look

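Among the named genes, single libraries stood far from the other 4 of their group in 14 of 290 groups of 5 libraries, where chance flags about 1 in 20 groups. Of these, 5 were cold DPP4+ library 5, which was low for Clcf1 (105 against 162 to 180 in the other cold libraries), Wisp1 (44.1 against 67.1 to 75.9), Slc16a6 (375 against 589 to 675), Egfl7 (20.9 against 35.9 to 39.2) and Cemip (142 against 227 to 254). Cold library 1 was high for Arnt2 (61.2 against 44.1 to 48.7), cold library 4 for Xkr4 (15.3 against 8.62 to 9.86) and cold library 3 for Vwf, an endothelial marker (34.0 against 0 to 8.97).

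At 22 °C, library 3 was low for Cxcl14 (425 against 486 to 502) and high for Vwf (47.0 against 4.58 to 13.7), and library 1 was high for Egfl7 (26.7 against 17.4 to 19.0). Library 4 was low for Cd14 (42.0 against 53.0 to 56.7) and high for Prdx1 (2440 against 2199 to 2255) and Nhp2 (397 against 334 to 351). Prdx1 has near-identical pseudogene copies, so its level is uncertain.

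The cold effect differed between DPP4+ and DPP4- cells at 243 transcription factors (29.1%), 133 receptors (44.9%) and 126 secreted factors (39.1%). It also differed at 168 transporters (41.8%) and 77 signalling regulators (46.7%), against 33.8% of all genes. Opposite directions were called at 152 of the 427 genes that passed in both populations. Among the genes taken by the naming rule these were Inhba (difference of the log2 effects 4.01), Ptprn (2.79), Vcan (2.31) and Akap2 (2.08). Cebpa (-1.87) and Asns (-0.88), named outside the rule, were among the 152 as well.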

How the results depend on the processing

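No named gene that was called changed direction under the alternatives run, but several balances of rises and falls turned. The DPP4+ counts, 3475 higher and 3391 lower, were 2616 and 3657 with library totals set equal and 3279 and 3539 with TMM scaling. With quantile normalization the balance turned for transcription factors and coregulators (199 and 194) and, among them, numbered zinc fingers (86 and 54). With totals set equal it turned for solute carriers (51 and 58), DPP4- cells and the difference of effects. The DPP4+ counts were 3335 higher and 3470 lower with edgeR, 3432 and 3375 with DESeq2, 3052 and 2907 in the 20-library fit, and 3143 to 3723 and 3081 to 3770 when 1 library was left out. Rises of at least 2-fold numbered 622 and falls 998 with no filter, and falls 341 at a mean of at least 50 (leaving 1 library out, 343 to 408 and 585 to 652). With library totals set equal, positive differences numbered 1130 (leaving 1 library out, 1964 to 2309, and negative 1833 to 2255). The DPP4- counts were less stable: 937 higher and 228 lower with totals set equal, 249 lower with quantile normalization, 130 and 265 with sample weights, and 164 to 382 and 313 to 563 leaving 1 library out, the lowest rise count being without DPP4- cold library 3.

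The counts of each list, and the switched genes without single libraries, were put through these settings as a choice made after seeing the data: oxidative phosphorylation had 11 rises with totals set equal, interferon-stimulated genes 7 with quantile normalization (3 to 6 leaving 1 library out), glucocorticoid targets 3 falls in the 20-library fit (3 to 5) and hyaluronan genes 2 to 4 rises. With a limit of 1 read in place of 3, 6 genes were switched on and 1 off, and leaving 1 library out gave 16 to 19 on and 6 to 8 off. Whether replicate numbers pair the samples was not settled, and the main fits used no pairing. Same-numbered cold and 22 °C DPP4+ libraries had correlations of 0.32, 0.00, 0.05, 0.11 and 0.19, and those numbered 1 were each other's closest match. Same-numbered DPP4+ and DPP4- libraries of 1 temperature had 0.01 to 0.16. Of these, cold libraries 2, 3 and 5 and 22 °C libraries 2 and 5 were each other's closest match. With the replicate block the counts were 3675 higher and 3570 lower, with differences positive at 2192 and negative at 2113 genes, or 2193 and 2102 with the block within temperature, added after seeing the data, and Dpp4 passed (adjusted p = 0.0431). Of 145 named genes 136 kept their direction and call in every setting in which they were tested, which was all 23 for 108 of the 145, and Adipoq did not pass in the 20-library fit (adjusted p = 0.27). The cause of these changes was not tested. Depth limits genes near 0, where a group can hold 0 or 1 read per library.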
